A study of Homo sapiens with 15 samples.

Results

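DKK1 and 9 genes of the WNT/β-catenin pathway (AXIN2, LGR5, ASCL2, RNF43, ZNRF3, NKD1, TCF7, TCF7L2 and CTNNB1) were followed in HCT116 cells. They were found by matching their symbols to the Ensembl identifiers of the deposited table, and all 10 were found among its 60664 genes. HCT116 cells come from a human colorectal carcinoma, and the labels give their genotype as WT in every sample. Cells of the control group (CTR) were untreated, and the other 4 groups were exposed for 72 h to 0.0154 mg/mL of synthetic hydroxytyrosol (HTyr), a phenol of the olive, or of a freeze-dried extract of oil production waste products (OPWPs). The extracts, enriched in HTyr, came from 3 Italian regions, AE from Apulia, TE from Tuscany and SE from Sicily. Doses were equal in mass, so the amount of HTyr in the extracts is not the same as in the HTyr group by design. Extracts were dissolved in water, and the sources used here do not say whether untreated cells received a vehicle. Each group has 3 libraries, 15 in all, prepared from poly(A) RNA of this 1 line. The titles call them biological replicates, but how the cultures were made is not given, and a p-value then covers only the spread among these libraries, which may be technical.

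WNT proteins bind Frizzled receptors and the co-receptors LRP5 and LRP6, which spares β-catenin from degradation so that it can enter the nucleus and act with TCF/LEF factors on their target genes. Several targets feed back on the pathway. AXIN2 is a scaffold of the complex that degrades β-catenin, RNF43 and ZNRF3 are ubiquitin ligases that remove Frizzled from the membrane, NKD1 restrains Dishevelled, and DKK1 is a secreted protein that occupies LRP5 and LRP6. In the intestine the pathway maintains the crypt stem cells marked by LGR5 and ASCL2, and most colorectal tumours carry mutations that keep it active. HCT116 cells are known for a β-catenin allele that resists degradation.

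Values are TPM, a transcript abundance corrected for length and scaled to the same total in every library. The depth of each library is unknown, since TPM keep none, and 13653 to 14034 genes per library had at least 1 TPM. Tests were made with limma on log2(TPM + 0.5) over 14899 genes, those that reached 1 TPM in 3 or more libraries. A gene is said to have risen, fallen or changed where its Benjamini-Hochberg adjusted p was under 0.05 and its log2 fold change beyond 0.585, a fold of 1.5. Fold changes on this scale understate those of genes with low TPM, and the comparisons with CTR share the same 3 CTR libraries. Of the 10 genes, 8 were tested, and LGR5 and ASCL2 were below 1 TPM in every library. In a bulk culture, fewer cells that express a gene and less RNA per cell cannot be told apart. The bracketed codes in the titles of the TE and SE samples name the other region, and their descriptions were followed. Were the codes right, TE and SE would trade places throughout.

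DKK1 fell and AXIN2 rose in the mean of the 4 treatments, in opposite directions and by a fold of more than 1.5. TCF7, which encodes a TCF/LEF factor, rose as well. CTNNB1, which encodes β-catenin, passed both thresholds with SE only. With AE, TE and HTyr it was higher by 0.37, 0.31 and 0.29 on the log2 scale, short of the fold threshold. RNF43, ZNRF3, NKD1 and TCF7L2 did not pass both thresholds with any treatment. The 10 genes were chosen with earlier results of these data known, so the counts that follow only describe them. AE changed 3 of the 8 genes tested, against 16.6% of all genes tested. Of these 2 were higher (10.7% of all genes) and 1 lower (5.81%). TE changed 2 (12.7% of all genes), 1 higher (7.46%) and 1 lower (5.26%). SE changed 4 (28%), 3 higher (17%) and 1 lower (11%). HTyr changed 1 (16.2%), with 0 higher (7.8%) and DKK1 lower (8.45%). In the mean of the 4 treatments 3 changed (17.9%), 2 higher (10.4%) and 1 lower (7.43%). The median log2 fold change of the 8 genes was 0.36 for AE, 0.24 for TE, 0.50 for SE and 0.04 for HTyr, where the medians of all genes tested were 0.09, 0.05, 0.09 and -0.04.

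**Figure D1:**
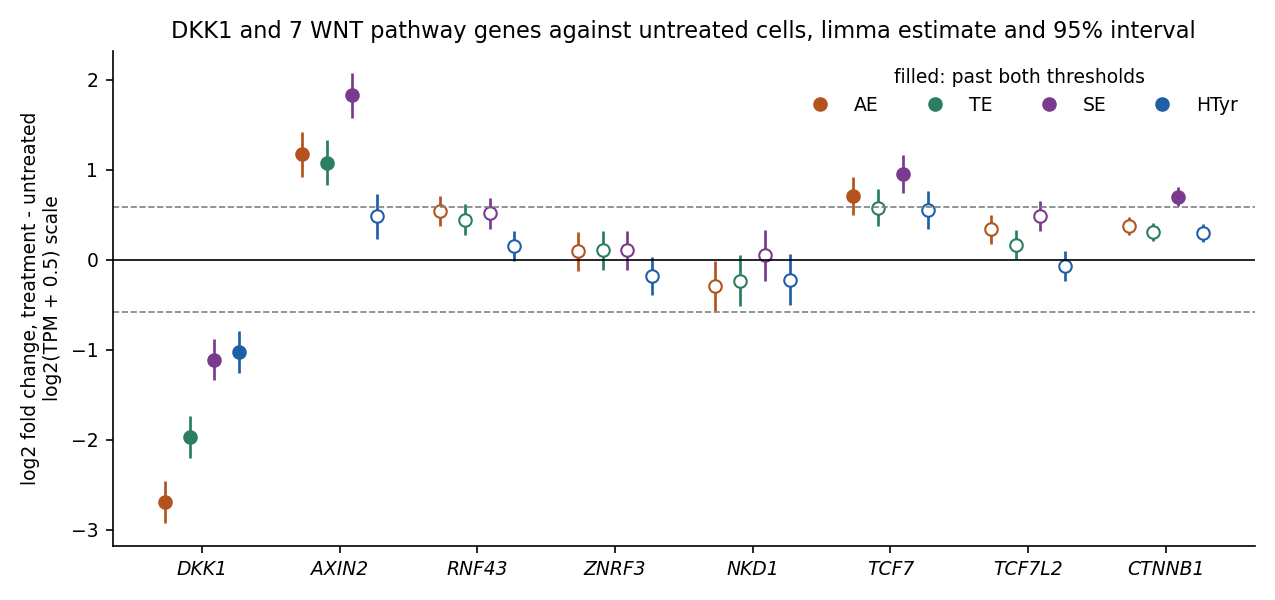
Difference between each treatment and CTR (log2 fold change, from log2(TPM + 0.5)) for the 8 genes tested, with 95% confidence intervals from limma as bars (3 libraries per group) and filled points past both thresholds, which dashed lines mark for the fold. DKK1 lies lowest under every treatment, from -2.69 with AE to -1.03 with HTyr, and AXIN2 highest with AE, TE and SE, at 1.17, 1.08 and 1.82.

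DKK1 (ENSG00000107984, chromosome 10, 52314281 to 52318042, plus strand, GRCh38 with GENCODE 44) was the most abundant of the 10 genes in untreated cells. It is itself a target of β-catenin in intestinal cells as well as an inhibitor of WNT receptors. The 250 bases upstream of its RefSeq start are shown because they hold the letters of the TCF/LEF core, which a search of RefSeq starts found in 3 of the 9 windows of the members given there. The letters searched on both strands were CTTTGAA, or CTTTGAT, or CTTTGTA, or CTTTGTT, and capitals mark them in the 3 windows, each of which is written 5′ to 3′ on the plus strand of GRCh38.p14.
DKK1, chr10:52314031-52314280: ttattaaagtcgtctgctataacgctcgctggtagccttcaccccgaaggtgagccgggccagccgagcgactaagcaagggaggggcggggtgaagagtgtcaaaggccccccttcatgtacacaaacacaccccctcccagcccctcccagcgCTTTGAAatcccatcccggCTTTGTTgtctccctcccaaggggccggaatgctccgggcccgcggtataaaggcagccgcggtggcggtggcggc
TCF7, the second start, chr5:134123368-134123617: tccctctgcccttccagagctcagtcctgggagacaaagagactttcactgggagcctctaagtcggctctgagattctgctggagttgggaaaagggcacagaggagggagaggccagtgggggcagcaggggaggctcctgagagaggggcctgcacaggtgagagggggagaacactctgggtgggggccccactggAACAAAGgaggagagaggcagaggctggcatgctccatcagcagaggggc
TCF7L2, the second start, chr10:113126383-113126632: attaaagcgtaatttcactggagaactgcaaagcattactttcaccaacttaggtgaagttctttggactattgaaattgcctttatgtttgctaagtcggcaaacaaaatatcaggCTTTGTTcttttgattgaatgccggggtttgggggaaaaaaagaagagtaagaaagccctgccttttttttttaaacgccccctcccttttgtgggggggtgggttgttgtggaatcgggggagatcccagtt

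The DKK1 window holds CTTTGAA from 95 to 89 bases and CTTTGTT from 76 to 70 bases upstream of the start. The TCF7 window has 1 match on the minus strand, 50 to 44 bases upstream, and that of TCF7L2 has 1 on the plus strand, 133 to 127 bases upstream. Of 35116 windows of the same length in the RefSeq table, 4199 (12.0%) hold at least 1 match and 424 (1.21%) hold 2 or more. A match describes letters only and is not a binding site. The table gave windows for 5 of the 10 genes, DKK1, RNF43, TCF7, TCF7L2 and CTNNB1, and not for AXIN2, LGR5, ASCL2, ZNRF3 and NKD1. The DKK1 window lies upstream of the gene and crosses an exon of PRKG1-AS1, a non-coding RNA of the opposite strand.

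In untreated cells DKK1 stood at 218.11, 220.45 and 201.99 TPM in the 3 libraries, a mean of 213.5 ± 10.1 (SD, n = 3). With AE its values were 40.80, 28.46 and 29.68 TPM, 15.45% of the CTR mean, and with TE they were 51.14, 56.65 and 54.49 TPM, or 25.33%. With SE they were 102.88, 91.06 and 102.53 TPM, or 46.28%, and with HTyr 99.44, 106.92 and 107.10 TPM, or 48.94%. All 12 treated libraries lay below all 3 untreated ones, and the AE and TE libraries lay below every SE and HTyr library. DKK1 fell by 2.69 for AE, 1.97 for TE, 1.11 for SE and 1.03 for HTyr on the log2 scale (standard error 0.107, limma adjusted p between 2.16e-09 and 8.28e-06), and by 1.70 in the mean of the 4 treatments (standard error 0.0846, adjusted p = 4.6e-09). PRKG1-AS1, which crosses the start of DKK1 on the other strand, stood at 1.2 to 1.81 TPM in CTR and 0.16 to 1.21 TPM in treated libraries. Whether the counting used strand is not given, but the level of PRKG1-AS1 was low beside that of DKK1.

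AXIN2 (ENSG00000168646, chromosome 17, 65528563 to 65561648, minus strand) had a low level in untreated cells and the largest rise of the 8 genes with AE, TE and SE. Its values were 2.52, 3.72 and 2.95 TPM in CTR, 6.89, 7.34 and 8.15 TPM with AE, and 7.03, 6.64 and 7.19 TPM with TE. They were 12.37, 11.53 and 12.12 TPM with SE and 4.13, 4.44 and 4.73 TPM with HTyr. All 12 treated libraries lay above all 3 CTR libraries, those of HTyr by the smallest margin, while each SE library lay above every other library. The log2 fold changes were 1.17 with AE, 1.08 with TE and 1.82 with SE (standard error 0.115, limma adjusted p = 3.53e-06, 1.25e-05 and 1.82e-08). With HTyr the log2 fold change of AXIN2 was 0.48 (adjusted p = 0.00453), short of the fold threshold, and it was 0.61 and past it without CTR replicate 2, the highest of the CTR libraries. In the mean of the 4 treatments AXIN2 rose by 1.14 (standard error 0.0905, adjusted p = 2.41e-07). An annotated same-strand gene over AXIN2 (ENSG00000266076) stood at 0 to 0.62 TPM in all libraries, and reads could be split between them.

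**Figure D2:**
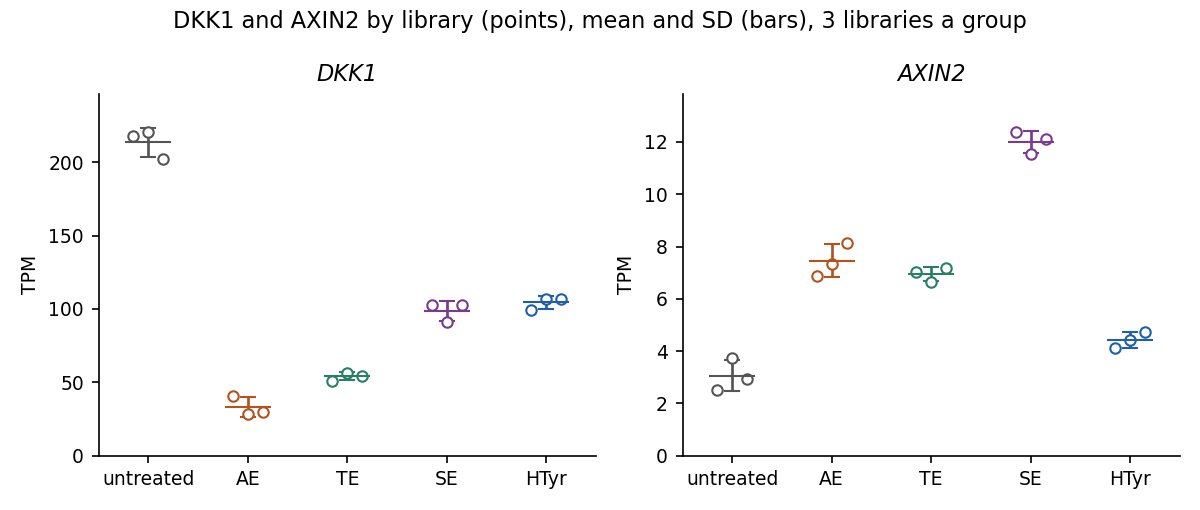
TPM of DKK1 (left) and AXIN2 (right) in each library (points), with the mean and SD of the 3 libraries of a group (bars). DKK1 falls from about 213.5 TPM in untreated cells to 32.98 TPM with AE, and AXIN2 stands highest with SE, at 12.01 TPM, and lowest in untreated cells, at 3.063 TPM.

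The order of the treatments was not the same for both genes. For DKK1 the group means ran, from low to high, AE (32.98 ± 6.80 TPM), TE (54.09 ± 2.78), SE (98.82 ± 6.73), HTyr (104.5 ± 4.37) and CTR, and the neighbours SE and HTyr could not be separated. For AXIN2 they ran CTR (3.063 ± 0.608 TPM), HTyr (4.433 ± 0.300), TE (6.953 ± 0.283), AE (7.46 ± 0.639) and SE (12.01 ± 0.431), with AE and TE not separated (SD, n = 3 libraries each). Within single libraries, DKK1 was 59.3 to 86.6 times as abundant as AXIN2 in CTR. The ratio was 3.64 to 5.92 for AE, 7.27 to 8.53 for TE, 7.9 to 8.46 for SE and 22.6 to 24.1 for HTyr. This ratio was chosen after the values were seen and is given as a description.

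Each treatment was also set directly against the others, 6 pairs in all, to ask whether the treatments differed from each other rather than from CTR. Of 48 tests of a gene in a pair, 10 passed both thresholds, 5 for DKK1 and 5 for AXIN2. In each pair the p-values were adjusted over all genes tested. As the genes were chosen with earlier results of these data known, the counts per pair only describe them. Against HTyr, AE changed 2 of the 8 genes (1.34% of all genes tested), TE 2 (0.705%) and SE 1 (7.36%). SE against AE changed 2 (4.72%), SE against TE 2 (8.36%) and AE against TE 1 (0.0873%). Under median-ratio scaling of the libraries the median of all genes shifted by 0.116 for AE against HTyr and by 0.127 for SE against HTyr, and differences in those pairs are to be read against that shift.

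DKK1 lay lower with AE than with HTyr by a log2 difference of -1.67 (limma adjusted p = 4.41e-06), and lower with TE than with HTyr by -0.94 (adjusted p = 0.000534). SE lay above TE by 0.86 (adjusted p = 5.5e-05) and above AE by 1.59 (adjusted p = 5.15e-07), with no overlap of libraries in either pair. Between SE and HTyr the difference was -0.08 (95% interval -0.31 to 0.15, adjusted p = 0.618). AE and TE differed by -0.72, with AE lower (adjusted p = 0.0123), a call that was lost with only the groups compared in the fit (adjusted p = 0.202) and without AE replicate 2 (-0.63, adjusted p = 0.0503), AE replicate 3 (-0.66, 0.0853), TE replicate 2 (-0.69, 0.0525) or TE replicate 3 (-0.72, 0.0751).

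AXIN2 was higher with SE than with every other treatment, by a log2 difference of 1.34 against HTyr (limma adjusted p = 3.34e-06), 0.65 against AE (adjusted p = 0.0014) and 0.75 against TE (adjusted p = 0.000309). AE and TE differed by 0.09 (95% interval -0.15 to 0.34, adjusted p = 0.823). AXIN2 was higher with AE than with HTyr by 0.69 (adjusted p = 0.00543). That call was lost at a difference of 0.57 under median-ratio scaling or quantile normalization, and at an adjusted p = 0.0622 with only the groups compared. TE against HTyr gave 0.60 (adjusted p = 0.0171), close to the fold threshold. It was lost with a pseudocount of 1 (0.55), median-ratio scaling (0.53), quantile normalization (0.52), array weights (0.58) and only the groups compared (adjusted p = 0.073). It was also lost without TE replicate 1 (0.59, adjusted p = 0.0625), TE replicate 3 (0.57, 0.0647) or HTyr replicate 1 (0.55).

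**Figure D3:**
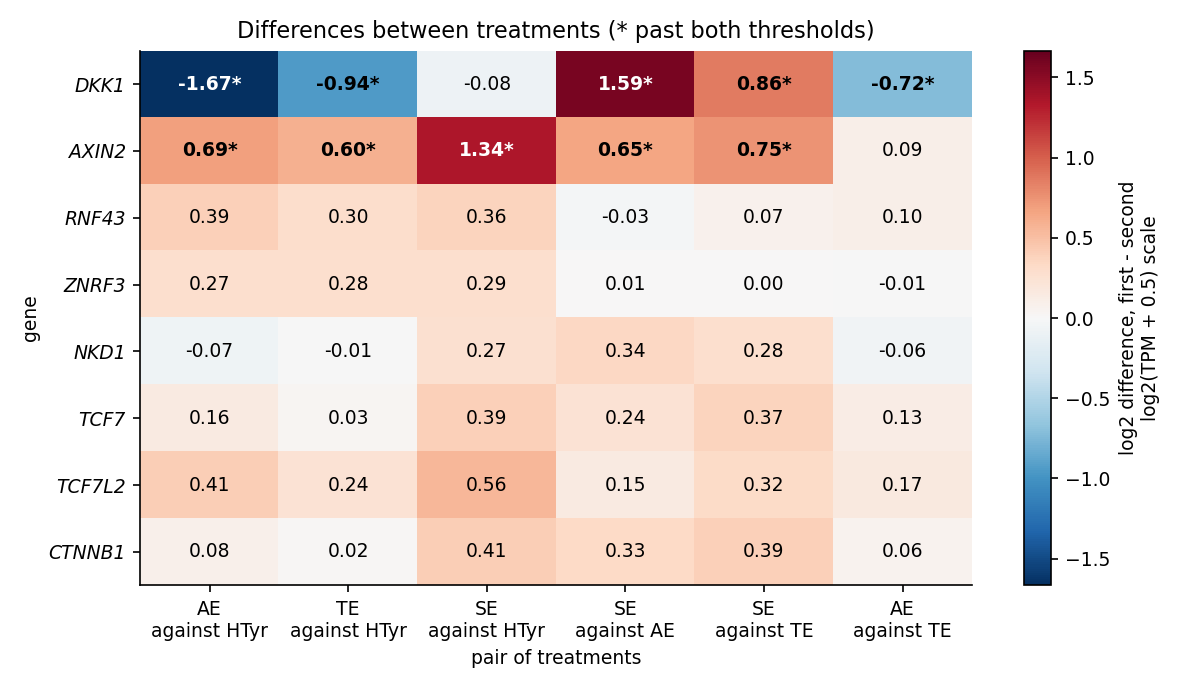
Heat map of the log2 differences between treatments (first minus second, from log2(TPM + 0.5)) of the 8 genes tested (rows) in the 6 pairs (columns), coloured from blue (negative) to red (positive), with stars past both thresholds (limma, 3 libraries per group). DKK1 and AXIN2 are the genes with differences past the thresholds, from -1.67 for DKK1 with AE against HTyr to 1.59 for DKK1 with SE against AE.

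The ubiquitin ligases RNF43 and ZNRF3 act on the same receptors. RNF43 (ENSG00000108375, chromosome 17, 58353676 to 58417595, minus strand) stood at 40.00, 43.72 and 48.44 TPM in CTR and at 63.08, 62.78 and 66.87 TPM with AE. It stood at 57.26, 62.73 and 60.24 TPM with TE, 61.52, 69.05 and 58.88 TPM with SE, and 47.48, 46.78 and 52.40 TPM with HTyr. The libraries of the 3 extracts lay above all CTR libraries, and those of HTyr overlapped them. The log2 fold changes were 0.54 for AE, 0.45 for TE, 0.52 for SE and 0.15 for HTyr (standard error 0.079, limma adjusted p = 0.000109, 0.000695, 9.22e-05 and 0.148), all short of the fold threshold. Without CTR replicate 3, the highest of the CTR libraries, those of AE and SE came to 0.61 and 0.59 and passed. The direct differences from HTyr were 0.39 with AE (adjusted p = 0.0128), 0.30 with TE (adjusted p = 0.0613) and 0.36 with SE (adjusted p = 0.00375), also short of that threshold.

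ZNRF3 (ENSG00000183579, chromosome 22, 28883572 to 29057488, plus strand) stood at 4.44 to 4.93 TPM in CTR and at 3.82 to 5.61 TPM in treated libraries. Its log2 fold change in the mean of the 4 treatments was 0.03 (95% interval -0.14 to 0.20, limma adjusted p = 0.768). With HTyr alone its 3 libraries, at 3.82, 3.84 and 4.42 TPM, lay below every CTR library, with a log2 fold change of -0.18 (adjusted p = 0.173). The ratio of RNF43 to ZNRF3 within libraries was 9.01 to 9.83 in CTR and 11.2 to 13.2 in treated libraries of every group, a description chosen after the values were seen.

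NKD1 (ENSG00000140807, chromosome 16, 50548396 to 50649249, plus strand) was the least abundant of the 8 genes tested. It stood at 2.48, 2.41 and 2.10 TPM in CTR, 1.84, 1.69 and 1.90 TPM with AE, 1.96, 1.88 and 1.88 TPM with TE, 2.73, 2.14 and 2.43 TPM with SE, and 2.05, 1.73 and 2.01 TPM with HTyr. The libraries of AE, TE and HTyr lay below those of CTR, and those of SE overlapped them. The log2 fold changes were -0.29 for AE, -0.23 for TE, 0.05 for SE and -0.22 for HTyr (standard error 0.13, limma adjusted p = 0.0933, 0.192, 0.778 and 0.203). In the mean of the 4 treatments the value was -0.17 (95% interval -0.40 to 0.05).

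LGR5 (ENSG00000139292, chromosome 12, 71439798 to 71586310, plus strand), a receptor for R-spondins and the classic marker of intestinal stem cells, was listed at 0 TPM in 14 libraries and at 0.03 TPM in SE replicate 3. ASCL2 (ENSG00000183734, chromosome 11, 2268498 to 2270588, minus strand), a transcription factor of the same cells, was listed at 0 in all 15. Neither was tested, and no fold is given.

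**Figure D4:**
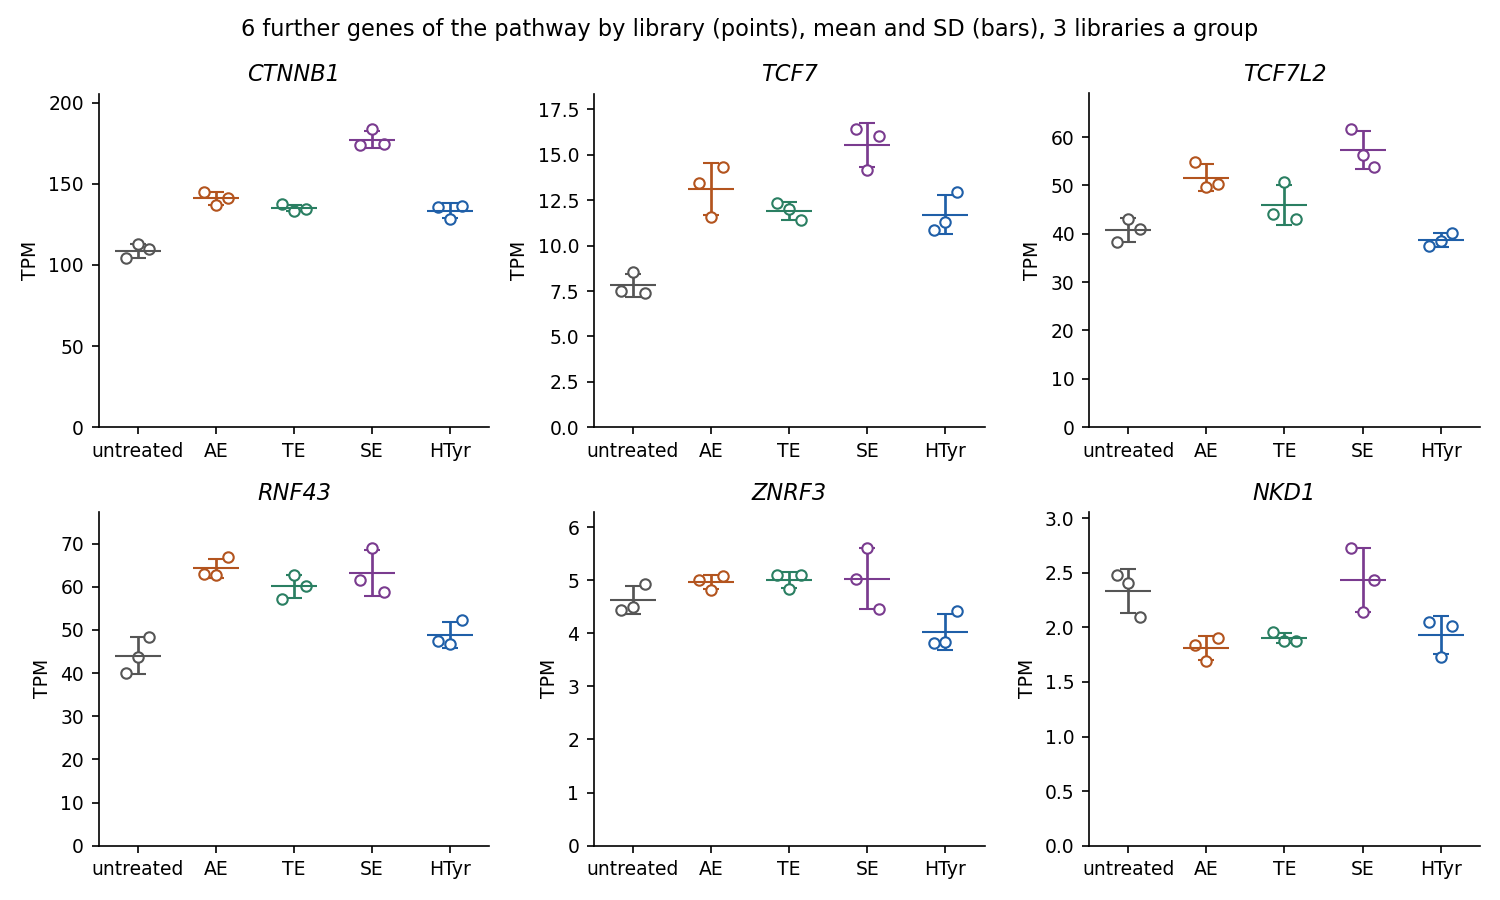
TPM of RNF43, ZNRF3, NKD1, TCF7, TCF7L2 and CTNNB1 in each library (points), with the mean and SD of the 3 libraries of a group (bars), each gene on its own axis. The CTNNB1 libraries with SE stand at 173.72 to 183.68 TPM, above all others, and those of ZNRF3 in the extracts overlap the CTR libraries.

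CTNNB1 (ENSG00000168036, chromosome 3, 41194741 to 41260096, plus strand) had the smallest spread between libraries of the 8 genes, with a pooled SD of 0.044 on the log2 scale. Its values were 104.19, 112.66 and 109.65 TPM in CTR, 145.02, 136.84 and 141.14 TPM with AE, and 137.29, 133.30 and 134.59 TPM with TE. They were 173.72, 183.68 and 174.65 TPM with SE and 135.58, 128.46 and 136.59 TPM with HTyr. Every treated library lay above every CTR library, and the SE libraries lay above all others. CTNNB1 rose with SE by 0.70 on the log2 scale (standard error 0.047, limma adjusted p = 3.35e-08), or by 0.52 and short of the threshold with quantile normalization. With AE, TE and HTyr its log2 fold changes were 0.37, 0.31 and 0.29 (adjusted p = 3.3e-05, 0.000212 and 0.000261), beyond the spread between libraries and short of the fold threshold. SE lay above HTyr by 0.41 (adjusted p = 3.98e-05), above AE by 0.33 (adjusted p = 0.000287) and above TE by 0.39 (adjusted p = 4.01e-05), also short of it.

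TCF7 and TCF7L2 encode DNA-binding partners of β-catenin, and TCF7L2 is the main one of the intestinal epithelium. TCF7 (ENSG00000081059, chromosome 5, 134114681 to 134151865, plus strand) stood at 7.51, 8.53 and 7.41 TPM in CTR. It stood at 13.44, 11.56 and 14.34 TPM with AE, 12.36, 12.00 and 11.39 TPM with TE, 16.41, 14.17 and 16.05 TPM with SE, and 10.88, 11.32 and 12.93 TPM with HTyr. All 12 treated libraries lay above the 3 of CTR. TCF7 rose with AE (0.71 on the log2 scale, limma adjusted p = 7.04e-05) and SE (0.95, adjusted p = 2.3e-06), with a standard error of 0.0977. With TE (0.58, adjusted p = 0.000487) and HTyr (0.55, adjusted p = 0.000568) it stopped just short of the fold threshold.

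The TE value of TCF7 passed the fold threshold with a pseudocount of 0.1 (0.60), without mitochondrially encoded genes (0.63), with array weights (0.59), and without CTR replicate 2 (0.64) or TE replicate 3 (0.61). The HTyr value passed with quantile normalization (0.60) and without CTR replicate 2 (0.61) or HTyr replicate 1 (0.60). SKP1, a subunit of SCF ubiquitin ligases that overlaps the end of TCF7 on the opposite strand, stood at 313.39 to 348.29 TPM in CTR and 367.12 to 577.44 TPM in treated libraries. Without a stated use of strand in the counting, reads of TCF7 and SKP1 in the shared stretch cannot be told apart, and the part of SKP1 in the TCF7 values was not tested.

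TCF7L2 (ENSG00000148737, chromosome 10, 112950247 to 113167678, plus strand) stood at 38.21, 43.11 and 40.97 TPM in CTR and at 61.62, 56.37 and 53.86 TPM with SE. Its values were 54.88, 49.63 and 50.36 TPM with AE, 44.12, 50.74 and 42.99 TPM with TE, and 37.40, 38.55 and 40.23 TPM with HTyr. The AE and SE libraries lay above all CTR libraries, and those of TE and HTyr overlapped them. The log2 fold changes were 0.34 for AE, 0.17 for TE, 0.49 for SE and -0.07 for HTyr (standard error 0.0763, limma adjusted p = 0.00318, 0.106, 0.000116 and 0.489), none past the fold threshold. The direct difference between SE and HTyr was 0.56 (adjusted p = 0.000144), and it was 0.60 and past the threshold without SE replicate 3. The ratio of TCF7 to TCF7L2 within libraries was 0.181 to 0.198 in CTR, 0.233 to 0.298 with the extracts and 0.291 to 0.321 with HTyr, again a description chosen after the values were seen.

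Across the 10 genes, AXIN2, TCF7 and CTNNB1 were higher in all 12 treated libraries than in all 3 CTR libraries, where 15.3% of all genes tested were. DKK1 was lower in all 12, where 11.8% of all genes tested were. The ranges of treated and CTR libraries overlapped for the other 6. Because the 10 genes were chosen with earlier results of these data known, these shares only describe them.

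The genes whose pattern over the 15 libraries was most like that of DKK1 were sought among 1276 genes with a mean of at least 5 TPM and group means that ranged by at least 1 on the log2 scale. Libraries of a group share their treatment, so these Pearson correlations of log2(TPM + 0.5) over 15 libraries describe a likeness. The highest was that of CPA4, a carboxypeptidase, at 0.956. CPA4 had mean levels of 36.54 TPM in CTR, 7.127 for AE, 8.317 for TE, 15.06 for SE and 21.47 for HTyr, an order shared with DKK1. It was followed by MYL9, a myosin light chain (0.879), AKAP12, a scaffold of protein kinase A (0.868), the keratin genes KRT15 (0.858) and KRT19 (0.856), and THBS1, a secreted matrix glycoprotein (0.817). The means of these 5 were highest in CTR, and the means of KRT19 stood in the order seen for DKK1, at 512.6 TPM with AE, 541.5 with TE, 544.8 with SE, 770.3 with HTyr and 1072 in CTR.

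The rest of the pathway was described with 6 lists that hold 130 further genes, of which 87 were tested. WNT7A and EDN1 had at least 1 TPM only in CTR libraries, and RSPO4 and MMP7 only in treated ones. These 4 passed the filter only through the side where they were high, which favours a difference, and they are left out of the counts that follow, which cover 83 genes. In the mean of the 4 treatments, 1 of the 83 rose and 10 fell, 13.3% in all against 17.9% of all genes tested, while 72 stayed short of a threshold. Their median log2 fold change was -0.07, against 0.05 for all genes tested. With AE 1 rose and 10 fell (13.3%, against 16.6% of all genes), and for TE these counts were 1 and 5 (7.23%, against 12.7%). They were 5 and 15 for SE (24.1%, against 28%), then 2 and 9 for HTyr (13.3%, against 16.2%). The shares changed in either direction lay below those of all genes tested in each of these comparisons. Of all genes tested, 10.4% rose and 7.43% fell in the mean, 10.7% and 5.81% with AE, and 7.46% and 5.26% with TE. These shares were 17% and 11% with SE and 7.8% and 8.45% with HTyr. Among the 83 more fell than rose in each comparison, where among all genes tested more rose than fell in each but HTyr. With WNT7A and EDN1 included 13 of the 87 passed in the mean (14.9%, against 17.9% of all genes tested). With a mean of at least 5 TPM required 8 passed, where 1768 of all 10389 genes tested did.

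**Figure D5:**
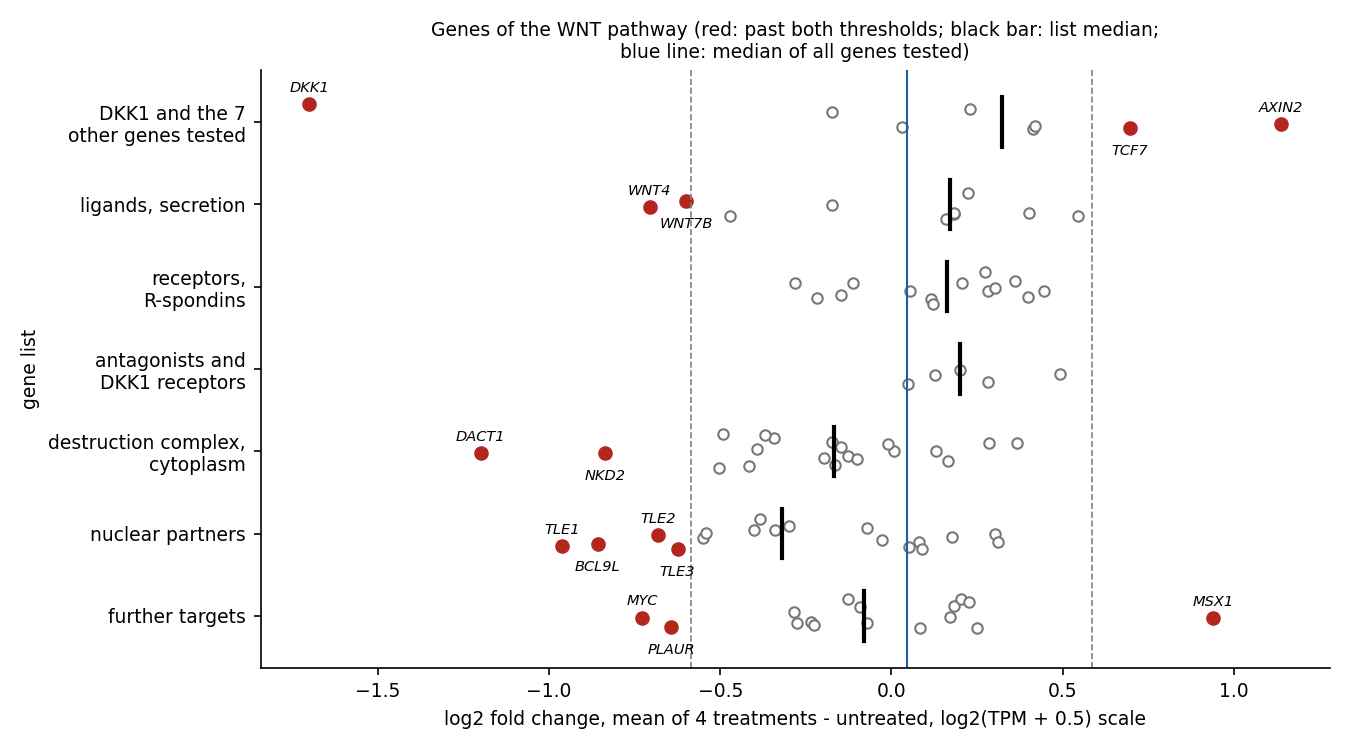
Mean of the 4 treatments minus CTR (log2 fold change, from log2(TPM + 0.5)) of the 8 genes tested and of 83 genes of 6 WNT pathway lists (points, red past both thresholds), with list medians as black bars, the median of all genes as a blue line and the fold threshold dashed. In the 6 lists MSX1, at 0.94, is the 1 gene past the thresholds upward, and DACT1, at -1.20, lies lowest of the 10 past them downward. The 4 genes that passed the filter through 1 side only are not drawn.

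Of 21 genes of WNT ligands and their secretion, 11 were tested. Apart from WNT7A, 0 of these rose and 2 fell in the mean of the 4 treatments (20% of 10, against 17.9% of all genes changed and 7.43% lower). With HTyr 1 rose (10%, against 16.2% changed and 7.8% higher). With AE 2 fell (20%, against 16.6% changed and 5.81% lower), and with SE 3 fell (30%, against 28% and 11%). With TE 0 changed (0%, against 12.7%). WNT7B had mean levels of 5.43 TPM in CTR, 3.08 for AE, 4.073 for TE, 2.387 for SE and 4.313 for HTyr. In that mean WNT7B fell by 0.60 (standard error 0.101, limma adjusted p = 0.000238), and this call was lost with a pseudocount of 1 (-0.54) and without CTR replicate 3 (-0.47) or AE replicate 2 (-0.58). WNT7A had 1.16, 1.80 and 1.18 TPM in CTR and 0.16 to 0.72 TPM in the 12 treated libraries, and no test is given for it. WNT4, at 1.223 TPM in CTR and 0.43 to 0.7433 in the treated means, had a log2 fold change of -0.71 (adjusted p = 0.0207), a call lost with a pseudocount of 1 (-0.51). It reached 1 TPM in 2 CTR libraries and 1 HTyr library. Of 22 receptors and R-spondins, 14 were tested besides RSPO4. None of them changed in that mean (0%, against 17.9% of all genes), in which their median was 0.16, against 0.05 for all genes tested. None changed with AE (0%, against 16.6%), TE (0%, against 12.7%) or HTyr (0%, against 16.2%), while 2 rose with SE (14.3%, against 28% changed and 17% higher).

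DKK1 binds Kremen proteins and CKAP4 besides LRP5 and LRP6, and these stand in a list of 18 antagonists and DKK1 receptors. Only 5 of the 18 were tested, since 12 were below 1 TPM in every library and FRZB, a secreted antagonist of WNT proteins, reached it in 1. FRZB stood at 0.85 to 1.31 TPM in CTR and 0.16 to 0.35 TPM in treated libraries, with no overlap and no test. None of the 5 changed in the mean of the 4 treatments (0%, against 17.9% of all genes). With SE 1 of them, KREMEN1, rose (20%, against 28% changed and 17% higher). KREMEN1, a co-receptor with which DKK1 removes LRP6 from the membrane, had mean levels of 9.57 ± 1.61 TPM in CTR, 13.64 ± 0.246 for AE, 12.5 ± 0.246 for TE, 16.22 ± 0.677 for SE and 12.17 ± 0.673 for HTyr (SD, n = 3 libraries each). KREMEN1 rose with SE by 0.74 on the log2 scale (standard error 0.0944, limma adjusted p = 1.71e-05). Its log2 fold change in the mean was 0.49 (standard error 0.0747, limma adjusted p = 9.73e-05), and it was 0.62 and past the fold threshold without CTR replicate 3. KREMEN2 (0.28, adjusted p = 0.0741), the WNT lipase NOTUM (0.20, adjusted p = 0.371), CKAP4 (0.13, adjusted p = 0.0674) and TPBG (0.05, adjusted p = 0.583) did not pass.

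Of 23 genes of the destruction complex and cytoplasmic signalling, 20 were tested. In the mean of the 4 treatments none rose and 2 fell (10%, against 17.9% of all genes changed and 7.43% lower). With SE 1 rose and 3 fell (20% changed in all, against 28%). With AE 2 fell (10%, against 16.6% changed and 5.81% lower). With TE 1 fell (5%, against 12.7% and 5.26%) and with HTyr 2 (10%, against 16.2% and 8.45%). DACT1, which binds Dishevelled, had 3.29 to 4.17 TPM in CTR and 1.0 to 1.88 TPM in treated libraries, with no overlap. On the log2 scale it fell by 1.20 (standard error 0.127, limma adjusted p = 3.62e-06). NKD2, the paralog of NKD1, had mean levels of 11.24 TPM in CTR and 4.83 to 7.307 TPM in the treated groups, and fell by 0.84 (standard error 0.194, adjusted p = 0.00262).

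Of 21 nuclear partners of β-catenin, 18 were tested. In the mean of the 4 treatments 4 fell (22.2%, against 17.9% of all genes changed and 7.43% lower). These were 3 co-repressors of the Groucho family and 1 co-activator. In single treatments 4 fell with AE (22.2%, against 16.6%), 3 with TE (16.7%, against 12.7%), 7 with SE (38.9%, against 28%) and 6 with HTyr (33.3%, against 16.2%), and none rose. TLE1 had 30.43 to 34.4 TPM in CTR and 13.7 to 18.7 TPM in treated libraries, and fell by 0.96 (standard error 0.0866, limma adjusted p = 7.98e-07). TLE2 fell by 0.68 (adjusted p = 0.000925) and TLE3 by 0.62 (adjusted p = 0.000492), and the latter call was lost without CTR replicate 1 (-0.55). BCL9L, which links β-catenin to Pygopus, had 45.06 to 51.2 TPM in CTR and 18.33 to 36.13 TPM in treated libraries, and fell by 0.86 (standard error 0.102, adjusted p = 1.06e-05). LEF1, another TCF/LEF gene, was listed at 0 in every library.

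Of 25 further targets described in colorectal cells, 18 were tested. Apart from EDN1 and MMP7, 1 rose and 2 fell in the mean of the 4 treatments (18.8% of 16, against 17.9% of all genes). In each single treatment 1 rose. With AE 2 fell (18.8% changed in all, against 16.6%) and with SE 2 (18.8%, against 28%). With TE 1 fell (12.5%, against 12.7%) and with HTyr 1 (12.5%, against 16.2%). MMP7, a matrix protease, had mean levels of 0.4933 TPM in CTR, 0.3667 for AE, 0.5633 for TE, 1.22 for SE and 1.377 for HTyr. MYC, the classic growth-promoting target of the pathway, had 362.72 to 365.15 TPM in CTR and 193.92 to 247.97 TPM in treated libraries, and fell by 0.73 (standard error 0.0469, limma adjusted p = 3.6e-08). MSX1, a homeobox factor, had mean levels of 17.46 TPM in CTR, 35.51 for AE, 37.24 for TE, 37.13 for SE and 27.1 for HTyr, and rose by 0.94 (standard error 0.0722, adjusted p = 1.79e-07). EDN1, which encodes endothelin, had a mean of 2.513 TPM in CTR and 0.2933 to 0.4633 TPM in the treated groups, and no test is given for it. PLAUR, the urokinase receptor, fell by 0.64 (standard error 0.0718, adjusted p = 6.04e-06). Genes described as targets moved in opposite directions where they passed both thresholds, AXIN2, TCF7 and MSX1 upward and DKK1, MYC and PLAUR downward. In the mean of the 4 treatments 13 of the 16 further targets did not pass, nor did RNF43, ZNRF3 and NKD1.

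Of 8 epithelial markers, 6 had at least 1 TPM in every library of every group, and KRT20 and VIL1, markers of differentiated cells, did not exceed 1.17 and 0.23 TPM. The sum of the 8 was 4197 to 4243 TPM in CTR and 2308 to 3145 TPM in treated libraries, while EPCAM alone stood at 269.79 to 345.61 TPM in all 15. The group means of KRT8 were 1563 TPM in CTR and 961 to 1123 TPM with treatment. Those of KRT18 were 1204 and 549.4 to 782.8 TPM, and those of KRT19 1072 and 512.6 to 770.3 TPM. For CDH1 they were 42.23 and 28.15 to 37.39 TPM, and for CDX2 4.653 and 5.023 to 5.373 TPM. Among markers of cells that the line should lack, 1 of 6 fibroblast markers (COL1A1), 1 of 7 immune markers (CD68) and 0 of 4 endothelial markers reached 1 TPM in every library. The sum of the immune list was 16.92 to 17.58 TPM in CTR and lower, at 1.71 to 7.18 TPM, in every treated library, and CD68, which is also a lysosomal protein of other cells, made up most of it, with PTPRC at or below 0.04 TPM. The sums of the fibroblast list, 6.34 to 8.01 TPM in CTR and 4.47 to 9.02 TPM in treated libraries, overlapped, as did those of the endothelial list, at 0.07 to 0.62 TPM. The part of these markers in the values of DKK1 and AXIN2 was not tested.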

How the data were processed

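RNA was read in 15 libraries of HCT116 cells (TruSeq stranded mRNA kit, poly(A) capture). The authors trimmed the reads, aligned them to GRCh38 with STAR, quantified Ensembl 104 genes with RSEM and deposited TPM with 2 decimals. Per the submitters' processing notes STAR, RSEM and GRCh38 were used, and versions are not given. TPM keep no depth, so no counting error is given, and no count model was fitted. Symbols and coordinates came from GENCODE 44, promoter sequences from RefSeq (GRCh38.p14).

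One limma 3.58.1 model (R 4.3.3, mean-variance trend, 10 residual and 3.42 prior degrees of freedom) held the 5 group means of log2(TPM + 0.5), with Benjamini-Hochberg adjustment over the 14899 genes tested in each comparison. The test was checked on simulated data. Figures were drawn in matplotlib 3.10.9 and tables made in pandas 2.3.3, numpy 2.4.6 and Python 3.11.15.

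Columns were matched to groups by their names and, for TE and SE, by the study's own supplementary table. For each library 1539 of 1539 values equalled its own column there (tolerance 0.0051 TPM), and at most 21 any other. No libraries were identical.

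The 10 genes and the 6 pathway lists were chosen with earlier results of these data known. Named besides them, by rule, were the 4 genes of a list with the smallest adjusted p among those called in the mean of the treatments, up to 3 called against most of their list, every tested antagonist, and the 6 genes most correlated with DKK1. The alternatives were pseudocounts of 0.1 and 1, other filters on low values, median-ratio scaling, quantile normalization, no mitochondrially encoded genes, only the groups compared, a replicate block, array weights, no trend, and each library left out.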

Additional observations from a re-analysis of the deposited data

How the results depend on the processing

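Under the 26 alternatives, 15 of them leaving out a library, the number of members called against CTR moved by over 1.5 times for HTyr alone, to 2 with quantile normalization and to between 1 and 3 with a library left out. Between treatments the number fell to 1 for AE against HTyr with median-ratio scaling, quantile normalization or only the groups compared. For TE against HTyr it fell to 1 with those 3, a pseudocount of 1 or array weights, and was 1 to 2 with a library left out. SE against HTyr gave 1 to 2 and AE against TE 0 to 1 with a library left out, and the latter 0 with only the groups compared. The genes behind each are named above, and the cause was not tested. The further pathway genes called, 13 with WNT7A and EDN1, numbered 8 with a mean of at least 5 TPM, where fewer genes were tested. Small values changed sign with median-ratio scaling for ZNRF3 (-0.018) and TPBG (-0.0025) in the mean of the 4 treatments and for NKD1 with SE (-0.0397). The value of NKD1, SE against CTR, also changed sign without CTR replicate 3 (-0.0105) or SE replicate 1, over a range of -0.0226 to 0.1229 with a library left out.

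Same-numbered libraries did not deviate together. The correlation of their deviations from the group means averaged -0.01 over 30 pairs (-0.209 to 0.263), against 0.006 over 60 pairs with different numbers, and 4 of 15 libraries correlated best with their own number. With a replicate block the members called numbered 3 with AE, 2 with TE, 4 with SE, 1 with HTyr and 3 in the mean of the 4 treatments, and 13 further pathway genes were called, as without it. Over all 14899 genes tested, AE against CTR gave 2439 calls with the block and 2466 without. The calls with and without it were 1868 and 1896 for TE, and 4157 and 4168 for SE. They were 2398 and 2421 for HTyr, and 2670 and 2661 in the mean of the 4 treatments.

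Over all genes, calls in the mean of the 4 treatments went from 2661 to 1768 with a mean of at least 5 TPM. Those of HTyr against CTR, 2421, came to 2405 with quantile normalization and 2165 to 2473 with a library left out. Those of AE against HTyr, 200, came to 126 with that filter, 117 with median-ratio scaling, 106 with quantile normalization, 25 with only the groups compared, and 75 without HTyr replicate 2 or 93 without AE replicate 1. Those of TE against HTyr, 105, came to 63 with no filter, 27 with only the groups compared, 54 to 56 without 1 of the TE libraries and 63 without HTyr replicate 3. Those of AE against TE, 13, came to 7 with no filter, 1 with only the groups compared, 24 with array weights and 4 to 8 without 1 of the AE or TE libraries. TPM give no depth, so no limit of detection can be set for LGR5 and ASCL2, and 3 libraries per group limit the precision of every value.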
